A study of Saccharomyces cerevisiae with 20 samples.

Results

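Transcripts of arginine synthesis and arginine breakdown were followed through batch cultures of the yeast Saccharomyces cerevisiae grown with and without oxygen. The 9 genes described were ARG2 (YJL071W), ARG7 (YMR062C), ARG8 (YOL140W), ARG3 (YJL088W), CPA1 (YOR303W), ARG1 (YOL058W) and ARG4 (YHR018C) for synthesis, and CAR1 (YPL111W) and CAR2 (YLR438W) for breakdown. They are the probe sets whose annotated gene symbol is 1 of these 9 names, 1 probe set per gene, among 9335 features on each array and 6067 probe sets of protein-coding genes that entered the fits. The genes were picked with their signals on these same arrays known, so every value below describes them. For these 9 genes the threshold that marks a difference as called is used only as a description, and no p-value of a single gene is printed.

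Yeast makes arginine from glutamate. In the mitochondrion, glutamate is acetylated and converted to ornithine, which leaves through a carrier and takes up a carbamoyl group in the cytosol, and the resulting citrulline is turned into arginine by a pair of further enzymes. Breakdown runs the other way in the cytosol: arginase splits arginine into urea and ornithine, and an ornithine transaminase passes ornithine on towards proline and glutamate, so that arginine serves as a nitrogen source and, from the vacuole, as a nitrogen store. When arginine is plentiful, a regulator complex that includes Arg80, Arg81, Arg82 and Mcm1 represses synthesis genes and induces CAR1 and CAR2, while Gcn4 activates synthesis genes during amino acid starvation.

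All cultures were of the prototrophic laboratory strain CEN.PK113-7D (MATa MAL2-8C SUC2), with no mutation or added gene compared, in bioreactors with synthetic medium holding 20 g/L glucose at 30 °C and pH 5.0. Aerobic cultures, which grow on glucose and then on the ethanol they made, were sampled in exponential and late exponential phase, at the diauxic shift, in post-diauxic phase and in early and late stationary phase (SP). Anaerobic cultures, in which SP follows directly when glucose is gone, were sampled in exponential phase, at the end of it, and in early and late SP. The study compared SP cultures by the last sample of each regime, here late SP, and took it hours, not days, after SP began. Each of these 10 conditions had 2 replicate cultures, each hybridized to a 1-colour Affymetrix YG-S98 array, which gives 20 arrays. By the study's methods the anaerobic medium alone held 10 mg/L ergosterol and 420 mg/L Tween 80, dissolved in ethanol, and with these supplements present in every anaerobic sample, oxygen and supplements cannot be told apart. The deposited values are linear signals, already put on a common scale by the authors. A difference is that of the mean log2 signals of 2 conditions, which is log2 of the ratio of their geometric means, with its standard error (SE, n = 2 cultures per condition), and it was called when limma's adjusted p lay below 0.05 and the fold difference was at least 2. A signal is relative to the total on its array, so fewer cells and less RNA per cell cannot be told apart.

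The arrays had median signals of 44.1 to 69.4, and the 9 genes lay above the floor of 12 on all 20 of them. Labels were checked with marker transcripts, and 6 of 7 markers of anaerobic growth were higher on every anaerobic array than on any aerobic array, CYC7 being the exception. TIR4, a cell wall mannoprotein gene, measured 4799 to 10090 on the 8 anaerobic arrays and at most 525.5 on the aerobic arrays. Of 4 markers of oxygen and respiration, CYC1, for aerobic cytochrome c, measured 1311 to 5921 on the aerobic arrays and at most 207.5 on the anaerobic arrays, and ROX1 did not overlap either. CYB2 overlapped through aerobic exponential culture 2 (135.8, against up to 327.8 on anaerobic arrays). HAP1 has 3 probe sets, and the one with the highest mean signal was used. It overlapped too, with condition means of 632.5 to 912.8 in anaerobic and 246.0 to 688.6 in aerobic cultures. The study lists another HAP1 probe set as higher in aerobic than in anaerobic SP. STE2, a gene of MATa cells, measured 82.0 to 780.6. Of the mating type alpha markers, STE3 measured at most 29.7 and MF(ALPHA)2 at most 18.4, but MF(ALPHA)1 measured 1.1 to 238.8, with 216.2 and 238.8 in anaerobic early SP. Aerobic culture 2 stood apart in DAN1, another anaerobic cell wall gene, which measured 159.6 to 930.1 on its arrays outside late exponential phase against at most 7.1 on those of aerobic culture 1. TIR1, of the same family, measured 862.7 to 2369.4 against 62.1 to 294.3 on these arrays. In late exponential phase the DAN1 signals of the aerobic cultures were 11.2 and 12.1 and those of TIR1 118.9 and 130.4. Deviations from the condition means of same-numbered arrays in aerobic exponential and late exponential phase had a correlation of -0.555, so a culture number may not stand for the same culture at both of these time points, which was not tested and which touches the values below that leave out a whole aerobic culture. The ratio of the 3' to the 5' probe set of ACT1, a sign of RNA integrity, was 2.68 and 2.1 in aerobic late SP and 1.2 to 2.03 on the other 18 arrays, whereas those of SPT15 and SRB4 in aerobic late SP lay within the range of the other arrays.

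The transcripts of the acetylated steps to ornithine, ARG2, ARG7 and ARG8, had their highest signals before SP and their lowest in SP. ARG2 encodes acetylglutamate synthase, which starts the route, and its signals in aerobic cultures 1 and 2 were 288 and 315 in exponential phase, 318 and 325 in late exponential phase, 393 and 356 at the diauxic shift, 514 and 474 in post-diauxic phase, 445 and 332.5 in early SP and 119.5 and 132 in late SP. Without oxygen they were 229 and 224 in exponential phase, 264 and 169 at the end of it, 85.8 and 112 in early SP and 83.4 and 75.4 in late SP. ARG2 thus stayed high in aerobic early SP, with all 4 post-diauxic and early SP arrays above every exponential array, whereas all 6 arrays of aerobic late SP and anaerobic SP lay below every array of a growing culture. The geometric mean was highest in aerobic post-diauxic phase and lowest in anaerobic late SP, 6.23-fold apart.

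ARG7 encodes the ornithine acetyltransferase that releases ornithine and returns the acetyl group to glutamate, and it measured 569.6 and 481 in exponential phase, 684 and 683 in late exponential phase, 743 and 623 at the diauxic shift, 1009.6 and 773 in post-diauxic phase, 405 and 393 in early SP and 207 and 166.5 in late SP. In anaerobic cultures its signals were 558 and 577 in exponential phase, 766.5 and 718 at the end of it, 181 and 179 in early SP and 145 and 160.4 in late SP. The 3 SP conditions other than aerobic early SP lay below all others, and aerobic early SP lay between them and the growing cultures without overlap. For ARG8, which encodes acetylornithine aminotransferase, the aerobic signals were 104 and 190.5 in exponential phase, 173 and 124 in late exponential phase, 183 and 184 at the diauxic shift, 206 and 229.8 in post-diauxic phase, 40.2 and 47.7 in early SP and 51.4 and 59.1 in late SP. The anaerobic signals were 183.5 and 180.3 in exponential phase, 98.3 and 170.0 at the end of it, 48.3 and 50.4 in early SP and 49.2 and 51.0 in late SP. All 8 SP arrays of ARG8 lay between 40.2 and 59.1, aerobic early SP included, and all 12 arrays of earlier phases lay between 98.3 and 229.8.

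The genes of the steps in which ornithine meets carbamoyl phosphate, ARG3 and CPA1, had their highest signals in aerobic late SP. In anaerobic SP they differed, with ARG3 low and CPA1 near its earlier signals. ARG3 encodes ornithine carbamoyltransferase, which makes citrulline, and its aerobic signals were 561 and 863 in exponential phase, 639 and 736 in late exponential phase, 495 and 397 at the diauxic shift, 683 and 607 in post-diauxic phase, 177 and 368 in early SP and 1284 and 1230.5 in late SP. Its anaerobic signals were 599 and 779.7 in exponential phase, 666.5 and 704 at the end of it, 56.5 and 41.2 in early SP and 43.7 and 57.3 in late SP. The 4 anaerobic SP arrays were the lowest of the 20 and the 2 aerobic late SP arrays the highest, 26.05-fold apart in geometric mean from anaerobic early SP. In aerobic early SP the ratio between the cultures was larger than in the other aerobic conditions, although both lay below every earlier aerobic array.

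CPA1 encodes the small subunit of the arginine-specific carbamoyl phosphate synthetase, and its aerobic signals were 1351 and 1998 in exponential phase, 1412 and 1346 in late exponential phase, 1984 and 1520.4 at the diauxic shift, 2314 and 1964 in post-diauxic phase, 939 and 1025.5 in early SP and 6932 and 6378 in late SP. Without oxygen CPA1 measured 1693 and 1462 in exponential phase, 1564 and 1470.2 at the end of it, 1479.8 and 1571 in early SP and 1468 and 1317 in late SP. The anaerobic signals therefore stayed within 1317 to 1693 from exponential phase to late SP, and the 2 arrays of aerobic late SP, at or above 6378, stood clear of the next highest array, at 2314 in aerobic post-diauxic phase. The lowest condition was aerobic early SP, just before this rise in sampling order.

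The last steps are catalysed by argininosuccinate synthetase, encoded by ARG1, and argininosuccinate lyase, encoded by ARG4. ARG1 signals in aerobic cultures were 2119 and 2856 in exponential phase, 2130.0 and 2384 in late exponential phase, 1676 and 1609.6 at the diauxic shift, 3127 and 2366 in post-diauxic phase, 1433 and 1567 in early SP and 616 and 755 in late SP. In anaerobic cultures they were 2506 and 2451 in exponential phase, 2670.0 and 2552 at the end of it, 333 and 350.5 in early SP and 318 and 326 in late SP. All 12 arrays before SP lay at or above 1609.6 and the 8 SP arrays at or below 1567, with anaerobic SP lowest. ARG4 signals in aerobic cultures were 1662 and 1759.5 in exponential phase, 1970.2 and 1865.5 in late exponential phase, 2597 and 2465.5 at the diauxic shift, 2565 and 2414 in post-diauxic phase, 1205 and 1117 in early SP and 615 and 608 in late SP. In anaerobic cultures ARG4 measured 1918 and 1814 in exponential phase, 2028 and 1652 at the end of it, 414.5 and 425 in early SP and 418 and 378 in late SP. ARG4 was highest at the diauxic shift and in post-diauxic phase, which overlapped with each other and with no other condition, and in SP it was highest in aerobic early SP, lower in aerobic late SP and lowest on the 4 anaerobic arrays, as ARG1 was.

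**Figure D1:**
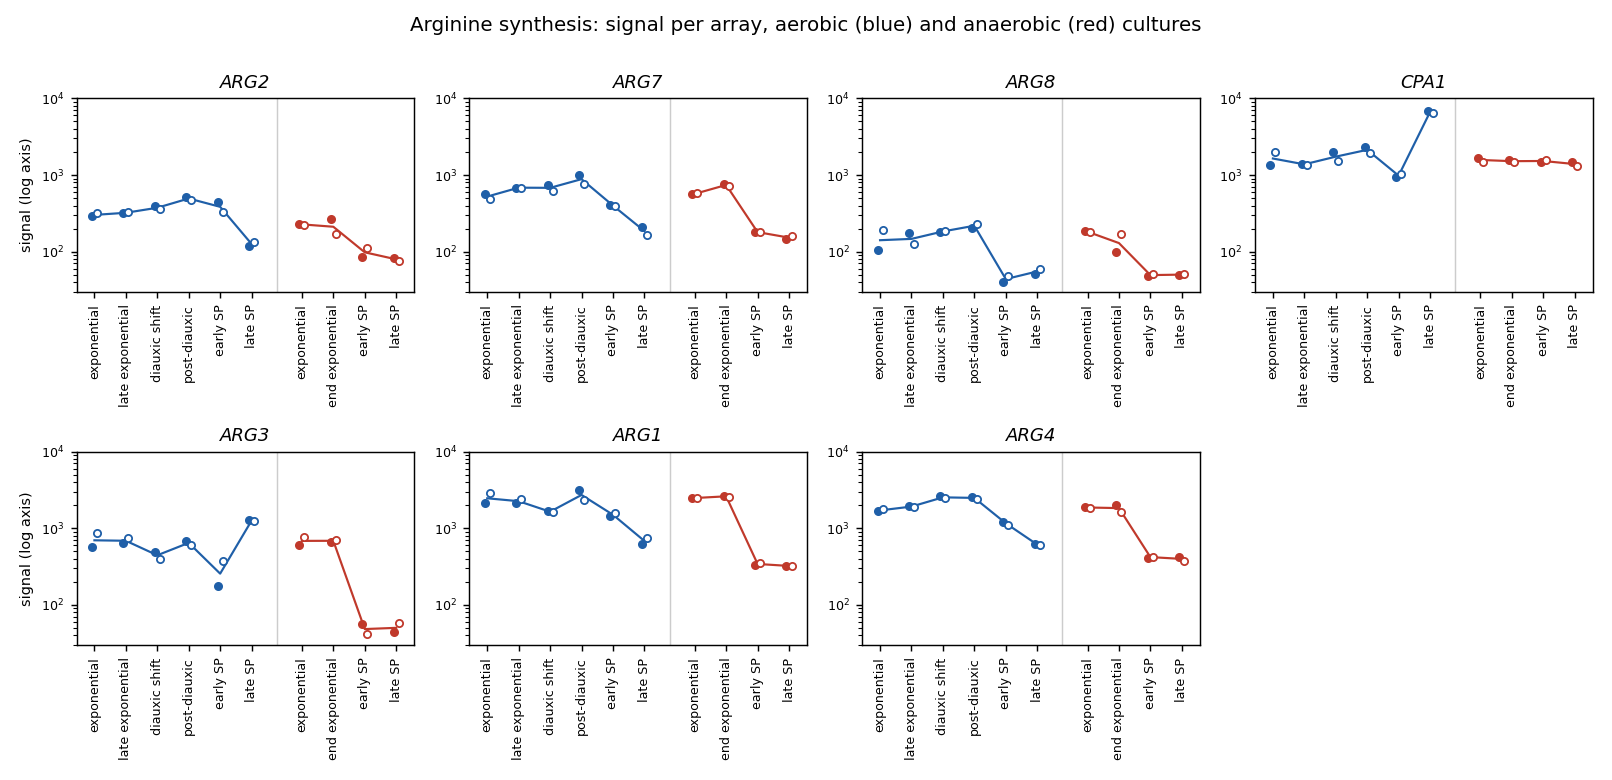
Signal of the 7 arginine synthesis genes on each array (log axis, arbitrary units scaled by the authors), by condition. Blue marks aerobic and red anaerobic cultures, filled points culture 1 and open points culture 2, and the line joins geometric means. ARG1, ARG4, ARG7 and ARG8 lie lower on every SP array than on any earlier array, with the lowest anaerobic ARG1 signal at 317.7. ARG2 stays high in aerobic early SP and is low in the other SP conditions. ARG3 and CPA1 peak in aerobic late SP at 1284 and 6932.

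Both breakdown genes had the opposite course, low in growth and high in SP. CAR1 encodes arginase, and its signals in aerobic cultures were 290.1 and 246 in exponential phase, 279.8 and 291.5 in late exponential phase, 661 and 664 at the diauxic shift, 544 and 453 in post-diauxic phase, 1295 and 1351 in early SP and 5693 and 4489 in late SP. In anaerobic cultures they were 88.5 and 75.8 in exponential phase, 86.1 and 69.1 at the end of it, 1733 and 1767 in early SP and 1710.4 and 1389 in late SP. Aerobic and anaerobic cultures did not overlap even while glucose lasted, with all 4 anaerobic arrays at or below 88.5 and all 4 aerobic arrays at or above 246.2. The geometric means spanned 65.54-fold, from the end of anaerobic exponential phase to aerobic late SP.

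CAR2 encodes ornithine transaminase, and it measured in aerobic cultures 355 and 111 in exponential phase, 190.4 and 358 in late exponential phase, 667 and 575 at the diauxic shift, 385 and 416 in post-diauxic phase, 2399 and 2893 in early SP and 7041 and 5534 in late SP. In anaerobic cultures it measured 231 and 196 in exponential phase, 319.9 and 287 at the end of it, 1788 and 1909 in early SP and 1451 and 1200.3 in late SP. The 2 aerobic cultures disagreed in exponential phase and, in the reverse order, in late exponential phase, the same time points at which the culture numbers were in doubt. All 8 SP arrays, at or above 1200.3, lay above all 12 earlier arrays, at or below 667.1, and aerobic late SP was highest.

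**Figure D2:**
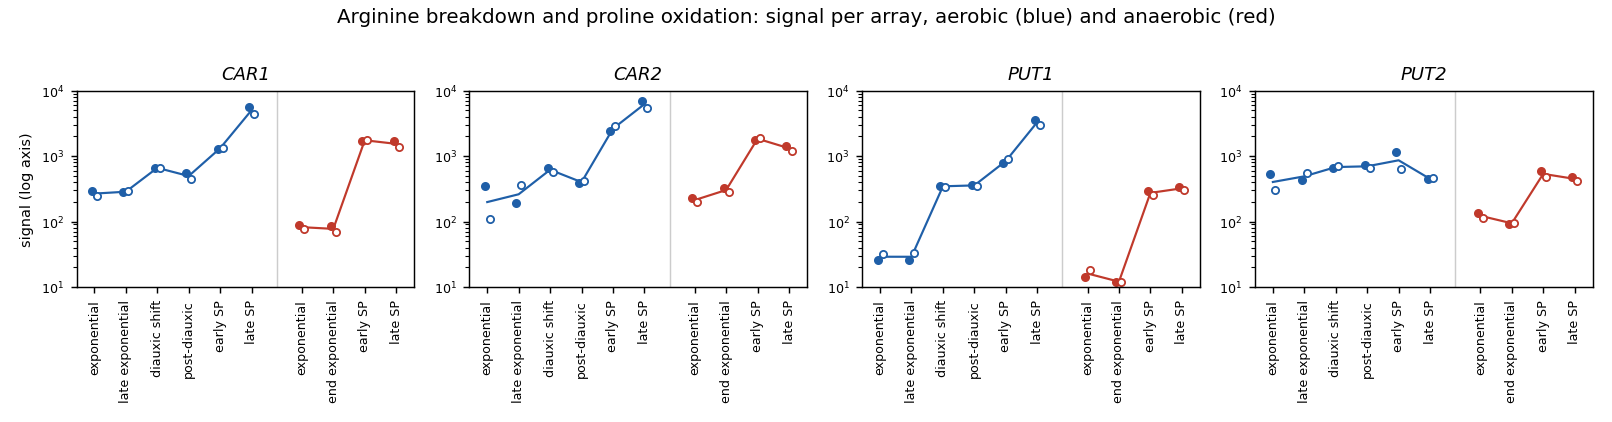
Signal on each array of CAR1 and CAR2, and of PUT1 and PUT2 (log axis, arbitrary units scaled by the authors, values below 12 drawn at 12). PUT1 and PUT2 oxidise proline, made by PRO3 from the product of CAR2, to glutamate. Colours, points and lines are as for the synthesis genes. CAR1 and CAR2 reach their highest signals, 5693 and 7041, in aerobic late SP, and CAR1 lies at or below 88.5 in growing anaerobic cultures.

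Aerobic and anaerobic cultures were then compared at phases of like name, with aerobic late exponential phase set against the end of anaerobic exponential phase. Aerobic SP follows growth on ethanol and anaerobic SP follows growth on glucose. In the SP comparisons, oxygen and growth history therefore cannot be told apart. Among growing cultures, CAR1 alone of the 9 genes was called, higher with oxygen by 1.71 (SE 0.18) in exponential phase, where 5.08% of all probe sets tested were called higher, and by 1.89 (SE 0.18) in late exponential phase, where 6.05% were. The exponential call was lost when only the 4 arrays compared were fitted. The 7 synthesis genes differed by -0.37 to 0.41 in exponential phase, a range that includes both signs.

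In early SP, 5 synthesis genes were called higher in aerobic cultures, against 16.1% of all probe sets called in that direction. The differences were 2.40 (SE 0.30) for ARG3, 2.13 (SE 0.18) for ARG1, 1.97 (SE 0.21) for ARG2, 1.47 (SE 0.15) for ARG4 and 1.15 (SE 0.17) for ARG7. In each of these 5 genes both aerobic arrays lay above both anaerobic arrays, and all tested probe sets had a median difference of 0.21. ARG8 differed by -0.17, CPA1 by -0.64, CAR1 by -0.40 and CAR2 by 0.51, none of them called.

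By late SP the set of called genes had changed in part: ARG3, CPA1, CAR1, CAR2 and ARG1 were called higher in aerobic cultures, where 18.2% of all probe sets were called in that direction. ARG3 differed by 4.65 (SE 0.30), a 25.1-fold difference, CPA1 by 2.26 (SE 0.19), CAR2 by 2.24 (SE 0.39) and CAR1 by 1.71 (SE 0.18). Genes of synthesis and both genes of breakdown were thus higher in aerobic than in anaerobic late SP. ARG1 differed by 1.08 (SE 0.18), but its call was lost on scaling to 6 housekeeping genes, without aerobic late SP culture 2, and without aerobic culture 2 at all time points (0.94 to 0.98). ARG2 (0.67), ARG4 (0.62), ARG7 (0.29) and ARG8 (0.14) were not called. The higher ACT1 3' to 5' ratio of the aerobic late SP arrays goes with these differences, and its part in them was not tested. Without aerobic culture 2 at all time points, the counts of members called in early and late SP were 5 and 4.

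**Figure D3:**
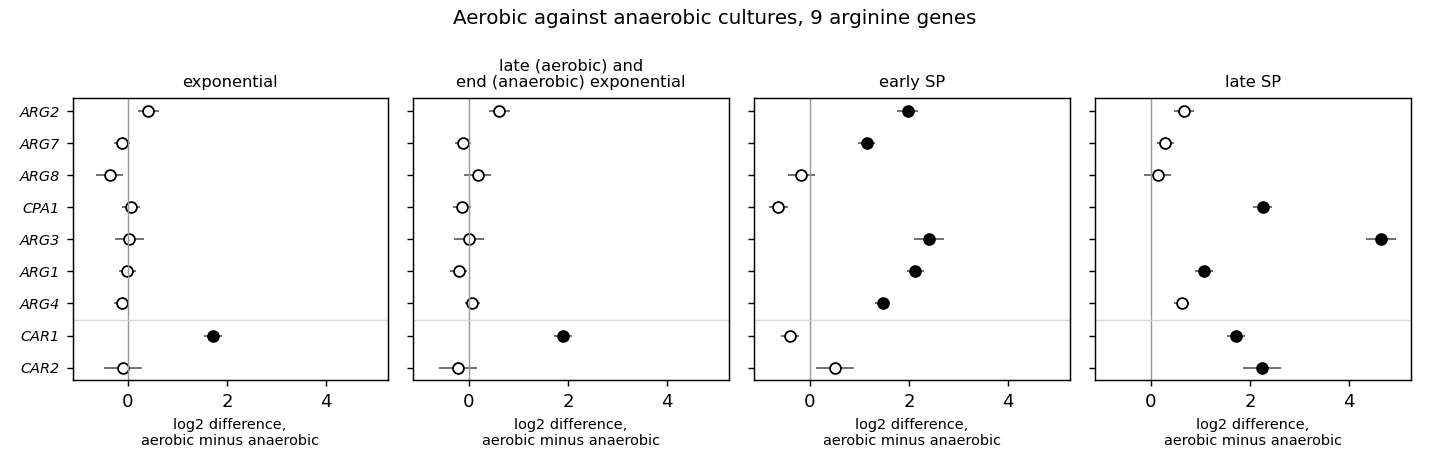
Log2 difference of aerobic over anaerobic cultures for the 9 genes in 4 phases, with bars for the standard error (n = 2 cultures per condition). Filled points are called, open points are not. In early SP the 5 synthesis genes called lie at 1.15 to 2.40 while ARG8, CPA1 and CAR1 lie below 0, and in late SP ARG3 stands at 4.65, with CPA1, CAR1 and CAR2 between 1.71 and 2.26.

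Each sample was also compared with the one before it in the same regime. No member was called between exponential and late exponential phase in aerobic cultures (1 at an unadjusted p below 0.05), where 0% of probe sets were called, nor between exponential and end exponential phase in anaerobic cultures (1), where 0.478% were. Without aerobic exponential culture 1, 1 member, CAR2, was called in the former comparison. When aerobic cultures ran out of glucose and passed the diauxic shift, no synthesis gene was called, with differences of -0.46 for ARG1, -0.63 for ARG3 and 0.40 for ARG4, while CAR1 rose by 1.21 (SE 0.18) and CAR2 by 1.25 (SE 0.39). At this step 19.4% of all probe sets rose and 12.7% fell. The CAR2 call was lost when only the 4 arrays were fitted, without aerobic late exponential culture 1, without aerobic diauxic shift culture 1 and without aerobic culture 1 at all time points. From the diauxic shift to post-diauxic phase, no member was called (3 at an unadjusted p below 0.05), where 11% of probe sets were.

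On entry into aerobic SP, 5 synthesis genes fell and both breakdown genes rose, at a step where 11.5% of all probe sets fell and 6.81% rose. ARG8 changed by -2.31 (SE 0.27), ARG3 by -1.34 (SE 0.30), ARG7 by -1.15 (SE 0.17), CPA1 by -1.12 (SE 0.19) and ARG4 by -1.10 (SE 0.15), whereas CAR2 changed by 2.72 (SE 0.39) and CAR1 by 1.41 (SE 0.18). ARG1 (-0.86) and ARG2 (-0.36), the gene of the entry step, were not called. The fall of ARG3 rests on culture 1: without that array in early SP the difference was -0.81 and not called, and it was also lost with only the 4 arrays. Without aerobic culture 1 at all time points, ARG3, ARG7 (-0.95) and CPA1 (-0.94) were no longer called and the count was 4. The ARG7 call was also lost without aerobic post-diauxic culture 1.

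During aerobic SP the synthesis genes parted. From early to late SP, where 8.01% of probe sets rose, 16.4% fell and the median of all of them was -0.22, CPA1 rose by 2.76 (SE 0.19) and ARG3 by 2.30 (SE 0.30), while ARG2 changed by -1.61 (SE 0.21), ARG1 by -1.14 (SE 0.18) and ARG7 by -1.11 (SE 0.17), all called. CAR1 rose further by 1.93 (SE 0.18) and CAR2 by 1.24 (SE 0.39). ARG4 (-0.92) and ARG8 (0.33) were not called. The rises of CPA1, ARG3 and CAR1 kept their call in every alternative run. The ARG1 call was lost on scaling to housekeeping genes and without aerobic late SP culture 1, and the ARG7 call with both other scalings and without aerobic late SP culture 2 or all of aerobic culture 2. The CAR2 call was lost with quantile normalization, without aerobic early SP culture 1, without aerobic late SP culture 1 and without all of aerobic culture 1.

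Anaerobic cultures changed in a single step. When glucose ran out, 6 synthesis genes fell and both breakdown genes rose, at the step where 23.8% of all probe sets fell and 23.9% rose. ARG3 changed by -3.83 (SE 0.30), a 14.2-fold fall, ARG1 by -2.93 (SE 0.18), ARG4 by -2.12 (SE 0.15), ARG7 by -2.04 (SE 0.17), ARG8 by -1.39 (SE 0.27) and ARG2 by -1.11 (SE 0.21). CPA1 was the exception with 0.01 (SE 0.19). CAR1 rose by 4.50 (SE 0.18), or 22.7-fold, the largest change of the 9, and CAR2 by 2.61 (SE 0.39). The ARG2 call was lost without anaerobic end exponential culture 1 or without anaerobic early SP culture 1 (-0.79 and -0.92), and the ARG8 call without anaerobic end exponential culture 2 (-0.99). From early to late anaerobic SP no member was called by limma, 0 had an unadjusted p below 0.05 and 0 were called without any 1 array, against 0.412% of all probe sets.

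**Figure D4:**
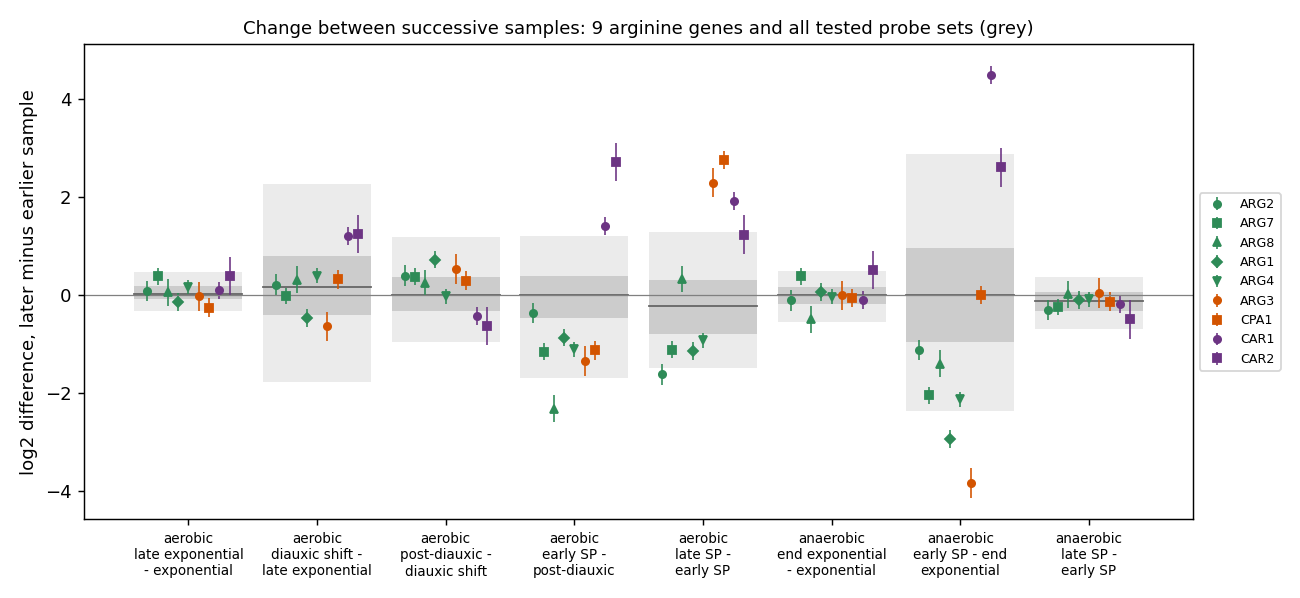
Log2 change of each of the 9 genes from a sample to the next in the same regime, with bars for the standard error. The grey bands span the 5th to 95th and the 25th to 75th percentile of all 6067 probe sets tested, and the grey line is their median. At anaerobic glucose exhaustion CAR1 (4.50), ARG3 (-3.83) and ARG1 (-2.93) lie outside the wider band, which runs from -2.36 to 2.88, and in aerobic late SP so do CPA1 (2.76), ARG3 (2.30), CAR1 (1.93) and ARG2 (-1.61) against -1.49 to 1.30.

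The differences between the regimes in these steps were estimated as interaction contrasts, the aerobic change minus the anaerobic change. At glucose exhaustion, the change of 6 synthesis genes was more positive in aerobic cultures, by 3.20 (SE 0.42) for ARG3, 2.53 (SE 0.21) for ARG4, 2.48 (SE 0.26) for ARG1, 2.04 (SE 0.24) for ARG7, 1.71 (SE 0.39) for ARG8 and 1.33 (SE 0.30) for ARG2, where 12.6% of probe sets were called in that direction and 6.64% in the other. For CAR1, which rose more in anaerobic cultures, the contrast was -3.29 (SE 0.26). CAR2 (-1.36) and CPA1 (0.33) were not called. The ARG2 call was lost on leaving out all of aerobic culture 1 or all of aerobic culture 2 (1.24 to 1.42) and the ARG8 call without aerobic culture 2 (1.47). The anaerobic sample after exhaustion is early SP and the aerobic one is a culture about to grow on ethanol, so growth state and oxygen cannot be told apart here.

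From early to late SP, a contrast added after the data were seen, CPA1 changed more in aerobic cultures by 2.89 (SE 0.27), ARG3 by 2.25 (SE 0.42), CAR1 by 2.12 (SE 0.26) and CAR2 by 1.73 (SE 0.55), and ARG2, with -1.31 (SE 0.30), and ARG1, with -1.05 (SE 0.26), fell more, where 8.08% of probe sets were called in the former direction and 11.2% in the latter. ARG4 (-0.85), ARG7 (-0.87) and ARG8 (0.31) were not called. The CAR2 call was lost in 10 alternatives, among them leaving out any of the 8 SP arrays (1.56 to 1.90), the ARG1 call without aerobic early SP culture 2, aerobic late SP culture 1 or all of aerobic culture 1 (-0.99 to -0.90), and the ARG2 call without all of aerobic culture 1 (-1.03).

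Over the 10 condition means, ARG1, ARG2, ARG4, ARG7 and ARG8 were correlated with each other (Pearson's r of log2 means 0.66 to 0.98, median 0.88 of 10 pairs), and CAR1 with CAR2 (0.91). Between the 5 synthesis genes and the 2 breakdown genes, r ran from -0.84 to -0.42. ARG3 had 0.59 to 0.78 with these 5 synthesis genes, overlapping the range among them, and 0.45 with CPA1, and CPA1 had -0.27 to -0.04 with the 5 and 0.43 to 0.44 with the breakdown genes. These correlations describe 10 points that share arrays and scaling.

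Among all 6067 probe sets, those with the course over the 10 conditions most like ARG1 were RRG7 (r = 0.991), ILV6 (0.991), MSI1 (0.989), YPL108W (0.989) and SPA2 (0.986). ILV6, the regulatory subunit of the enzyme that starts branched-chain amino acid synthesis, is the only amino acid synthesis gene of the 5. Closest to ARG3 were ASF1 (0.97), RAD6 (0.969), PUF4 (0.968), IBD2 (0.964) and STH1 (0.955), of which ASF1, a histone chaperone, RAD6, a ubiquitin-conjugating enzyme, and IBD2 also had their highest mean in aerobic late SP, at 284.8, 370.3 and 112.3. Closest to CAR1 were SSC1 (0.98), PAF1 (0.978), YIL089W (0.978), ULA1 (0.977) and TPD3 (0.976), and to CAR2 YBR225W (0.986), SWH1 (0.983), SLG1 (0.981), SNX41 (0.976) and ESBP6 (0.976).

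Regulators of the pathway were read from a list of 6 genes. This list and those that follow were set by pathway, but with earlier results of these arrays known, so the adjusted p-values beside their genes describe the fit over all probe sets and are not independent evidence. In early and in late SP, 3 of the 6 were called higher in aerobic cultures and 0 lower, against 16.1% and 18.2% of all probe sets called higher and 9.02% and 12.8% called lower. ARG80, which encodes a subunit of the arginine-responsive complex, was higher by 2.26 (SE 0.24) in early SP (adjusted p = 2.26e-06, limma) and 1.96 (SE 0.24) in late SP (adjusted p = 7.62e-06). Its signals were 50.5 and 60.9 at the end of anaerobic growth, 15.0 and 16.6 in anaerobic early SP and 24.3 and 21.2 in anaerobic late SP, against 183 and 147 at the aerobic diauxic shift, 71.6 and 79.5 in aerobic early SP and 95.1 and 82.3 in aerobic late SP. ARG80 thus fell at anaerobic glucose exhaustion (-1.81) and rose at the aerobic diauxic shift (1.47), an interaction of 3.28 (SE 0.33) with an adjusted p of 8.83e-06 by limma. The call of the anaerobic fall was lost with a floor of 30, which lies above its anaerobic SP signals.

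GCN4, the activator of amino acid synthesis genes, measured 6399.7 and 6521 in aerobic early SP and 9387.5 and 8114 in aerobic late SP, against 2710.2 and 2807 and 2756 and 3096 in anaerobic early and late SP. Its differences were 1.23 (SE 0.14) (adjusted p = 7.14e-06, limma) and 1.58 (SE 0.14) (adjusted p = 4.27e-07), although Gcn4 is controlled mainly at translation, which arrays do not show. UME6, a repressor that acts on CAR1 among other genes, was higher in aerobic SP too, by 1.61 in early SP and 1.56 in late SP (adjusted p = 0.0013 and 0.00131). ARG82, an inositol polyphosphate kinase, rose at glucose exhaustion in both regimes, by 1.52 in aerobic and 1.80 in anaerobic cultures, the former call being lost without aerobic culture 2 at all time points (1.15) and the latter with a floor of 30 (0.82). MCM1 rose in anaerobic cultures (1.05), a call lost with quantile normalization, without anaerobic end exponential culture 1 and without anaerobic early SP culture 1 (0.76 to 0.94). ARG81, a zinc-cluster subunit of the complex, was not called in any of the comparisons. With both other scalings and without either aerobic culture, 3 of the 6 were again called higher in early and in late SP.

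ORT1, the mitochondrial carrier that exports ornithine, followed the synthesis genes at anaerobic glucose exhaustion, where it changed by -1.14 (SE 0.21) (adjusted p = 0.000207, limma), and its interaction with oxygen there was 1.36 (SE 0.30) (adjusted p = 0.00514). The former call was lost without anaerobic end exponential culture 2 or anaerobic early SP culture 2 (-0.96 and -0.88), and the latter without all of aerobic culture 1 or all of aerobic culture 2 (1.46 and 1.25). Of the uptake genes, CAN1, the arginine permease, was not called in any comparison, with signals of 232 and 209 in aerobic late SP and 135 and 113 in anaerobic late SP, a difference of 0.84 that was under 2-fold (adjusted p = 0.00129). Of 8 transporter genes tested, 4 were called higher in aerobic cultures in early SP and 3 in late SP, with 0 lower. Of all probe sets, 16.1% and 18.2% were called higher and 9.02% and 12.8% lower. LYP1, also on this list, measured 173.0 and 204.1 in aerobic and 322.4 and 320.8 in anaerobic early SP, and was not called there. GAP1, the general amino acid permease, measured 3441 and 3173 in aerobic early SP and 3093 and 2166 in aerobic late SP against 416 and 376 and 268 and 225 in anaerobic SP. It was higher in aerobic SP by 3.06 and 3.40 (adjusted p = 1.41e-06 and 3.87e-07). ALP1, a permease for basic amino acids, measured 62.8 and 73.8 in aerobic early SP and 74.7 and 38.7 in aerobic late SP against 9.1 and 12.5 and 8.0 and 8.1 in anaerobic SP, below or near the floor of 12, so that its late SP difference is at least 2.16 and its early SP difference of 2.47 is set in part by the floor. Both were called, the late SP one not with a floor of 30.

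Downstream of CAR2, the product is converted to proline by PRO3, moved into mitochondria and oxidised by PUT1 and PUT2, whose transcription Put3 activates. Of the 5 genes of this route listed, 3 were called higher in aerobic than in anaerobic late SP and 0 lower, against 18.2% and 12.8% of all probe sets. The differences of the 5 ran from -0.89 to 9.20. The study lists PRO3 among the genes higher in anaerobic SP. PUT1, proline oxidase, an enzyme that passes electrons to the respiratory chain, measured 3633 and 3011 in aerobic late SP and 336 and 309 in anaerobic late SP, a difference of 3.36 (SE 0.18) (adjusted p = 1.36e-09, limma). It rose in anaerobic cultures too when glucose ran out, from below the floor of 12 on both arrays to 297 and 252, by at least 4.51, and at the aerobic diauxic shift by 3.58. PUT4, the proline permease, measured 7521 and 7536 in aerobic late SP and 9.8 and 13.7 in anaerobic late SP, and stayed at or below 19.4 on all anaerobic arrays. PUT2, which completes the route to glutamate, showed the same order as CAR1 in growing cultures: 525 and 308.5 with oxygen against 133 and 112 without it in exponential phase, 1.72 (SE 0.27) (adjusted p = 0.000374, a call lost with only the 4 arrays), and in late exponential phase a difference of 2.39 (adjusted p = 1.07e-05). In late SP PUT2 measured 439.6 and 458 with and 479 and 421 without oxygen.

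PRO1 and PRO2, for proline synthesis from glutamate, both fell at anaerobic glucose exhaustion (-2.43 and -1.57, adjusted p = 3.97e-08 and 4.25e-06, limma). PRO1 also fell during aerobic SP (-1.68, adjusted p = 8.16e-06). Urea is the other product of arginase. DUR3, which imports urea from outside the cell, was higher in aerobic SP by 1.78 in early and 1.94 in late SP (adjusted p = 0.000482 and 0.000186, limma). Of 10 genes of urea and allantoin use that were tested, 5 were called higher in aerobic cultures in early SP and 5 in late SP, with 0 lower, against 16.1% and 18.2% of all probe sets higher and 9.02% and 12.8% lower. DAL3, an enzyme of allantoin breakdown that also releases urea, had a difference of 4.35 in early SP (adjusted p = 2.24e-09) and 1.21 in late SP (adjusted p = 0.000709). At the aerobic diauxic shift, 2 of 5 glutamate and glutamine genes rose and 0 fell, against 19.4% and 12.7% of all probe sets. At anaerobic glucose exhaustion 2 of the 5 rose and 3 fell, against 23.9% and 23.8%. GDH2, which breaks glutamate down to ammonium and oxoglutarate, was among those that rose in both regimes, by 3.95 with and 3.44 without oxygen (adjusted p = 1.02e-08 and 3.15e-08, limma). GDH2 did not have the largest rise of the 5, which was 4.96 with and 3.53 without oxygen.

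Carbamoyl phosphate is shared with the pyrimidine route, and ornithine with polyamine synthesis. From aerobic early to late SP, 1 of 9 pyrimidine genes and 0 of 5 polyamine genes were called higher, against 8.01% of all probe sets. The 1 was URA8, a CTP synthase (1.14, adjusted p = 0.0013, limma), and its call was lost without aerobic early SP culture 2 or aerobic late SP culture 1 (0.98 and 0.99). At the aerobic diauxic shift 4 of the 9 pyrimidine genes fell and 2 rose (-3.09 to 3.98), against 12.7% and 19.4% of all probe sets. At anaerobic glucose exhaustion 6 fell and 2 rose (-2.86 to 4.56), against 23.8% and 23.9%. URA2, which makes carbamoyl phosphate for pyrimidines, was among those that fell at both steps (-2.01 and -1.27, adjusted p = 1.47e-06 and 5.76e-05, limma), where CPA1 differed by 0.33 and 0.01. Of the 5 polyamine genes, 3 fell and 1 rose at the aerobic diauxic shift (median -1.13), against 12.7% and 19.4% of all probe sets. The 1 that rose was SPE1, ornithine decarboxylase (1.03, adjusted p = 6.99e-05, limma). Its call was lost with quantile normalization, without aerobic late exponential culture 1, without aerobic diauxic shift culture 1 and without all of aerobic culture 1 (0.82 to 0.98).

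A list of 47 genes that make amino acids other than arginine served as a measure of what amino acid pathways did in general. At the aerobic diauxic shift, 27 of the 47 fell and 2 rose (median -1.13), against 12.7% of all probe sets that fell and 19.4% that rose (median 0.17). Of the 7 arginine synthesis genes, 0 were called in either direction. SER2, for serine, changed by -3.69 and LYS9, for lysine, by -2.81 (adjusted p = 1.06e-06 and 8.66e-07, limma). At anaerobic glucose exhaustion 41 fell and 1 rose (median -2.19), against 23.8% and 23.9% of all probe sets. Of the 7 arginine synthesis genes, 6 fell there. On entry into aerobic SP 26 fell and 1 rose (median -1.17), against 11.5% and 6.81% of all probe sets, and 5 of the 7 fell. These counts stand side by side and the difference between the lists was not tested.

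From early to late aerobic SP, 18 of the 47 fell and 2 rose (median -0.89), against 16.4% and 8.01% of all probe sets (median -0.22). The 2 were SER3 (2.53) and LYS5 (1.32), at the step where CPA1 and ARG3 rose. In late SP 2 of the 47 were called higher in aerobic cultures and 8 lower (median 0.01), against 18.2% and 12.8% of all probe sets (median 0.08). The 2 were LYS5 (2.34) and LEU4 (1.32, a call lost without all of aerobic culture 1). LYS12 (-2.63) and LEU2 (-1.57), 2 of the 8, rest on aerobic late SP culture 1, with LYS12 signals of 8.8 and 125.5 and LEU2 signals of 177 and 429 in the 2 cultures: without it each differed by -0.93 and was not called, nor was either with only the 4 arrays. The count depends on the culture, with 1 lower without aerobic culture 1 and 16 lower without aerobic culture 2. In early SP 13 were higher and 5 lower (median 0.77), against 16.1% and 9.02% of all probe sets. At glucose exhaustion 24 of the 47 had a more positive change in aerobic cultures and 1 a less positive one. Of all probe sets, 12.6% and 6.64% were called in these directions. The change was also more positive for 6 of the 7 arginine synthesis genes.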

How the data were processed

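RNA of 20 batch culture samples (10 conditions, 2 cultures each) was measured on Affymetrix YG-S98 arrays. The deposited table holds linear intensity values, 1 for each probe set on each array, put by the authors on a scale with the same average for all arrays. The version of the signal software is not given in the sources used here. The trimmed mean signal was 240.2 to 240.3 on every array, no further scaling was applied, and no columns of values were left unused.

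As in the authors' methods, a floor of 12 was applied to the signals. Of 6647 features of protein-coding genes, the 580 whose highest signal lay below 20 were left out. Log2 signals of the remaining 6067 entered a limma fit (limma 3.58.1, R 4.3.3) with a mean for each of the 10 conditions (10 residual and 4.732 prior degrees of freedom), with Benjamini-Hochberg adjustment over all probe sets tested in a comparison. Differences of at least 2-fold with an adjusted p below 0.05 were called. The script was tested on simulated data. Plots were made in Python 3.11.15 using matplotlib 3.10.9.

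The members and lists were chosen with earlier results of these data known. The rule for named genes was all 9 members with every array, genes of the lists by pathway with their calls, and the 5 probe sets whose log2 course over the 10 conditions correlated best with ARG1, ARG3, CAR1 and CAR2. ARG5,6, DUR1,2, VBA3, VBA5 and YPQ3 were not analysed here, because the annotation used gives none of them a probe set of its own.

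The labels give batch numbers, so same-numbered samples within a regime were taken as the same culture over time, while a number shared between regimes means nothing. Deviations of same-numbered samples correlated with a median r of 0.121 over 15 pairs of aerobic time points (-0.555 to 0.373, lowest for exponential with late exponential phase) and 0.0936 over 6 anaerobic pairs. Alternatives were floors of 1 and 30, no filter and a highest signal of at least 100, quantile normalization, a scaling by 6 housekeeping genes, fits of only the arrays compared, culture as a replicate block or a random block, no fold threshold, and leaving out each array in turn. Crossed culture numbers at aerobic late exponential phase and leaving out a whole aerobic culture were added after the data were seen. With 2 cultures per condition, precision is limited by the number of arrays.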

Additional observations from a re-analysis of the deposited data

Results flagged for a closer look

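Results were listed here where the aerobic and the anaerobic change of a gene differed by limma's interaction contrast (n = 2 cultures per condition). At glucose exhaustion, the aerobic change minus the anaerobic change was 3.20 for ARG3, 2.53 for ARG4, 2.48 for ARG1, 2.04 for ARG7, 1.71 for ARG8, 1.33 for ARG2 and -3.29 for CAR1. The 6 synthesis genes fell in anaerobic cultures and were not called in aerobic cultures, whereas CAR1 rose in both and by more without oxygen.

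From early to late SP the contrast was 2.89 for CPA1, 2.25 for ARG3, 2.12 for CAR1, 1.73 for CAR2, -1.31 for ARG2 and -1.05 for ARG1. No member was called between early and late SP in anaerobic cultures, so these contrasts follow the aerobic changes, and the values of ARG1, ARG2 and CAR2 were not called in some of the alternatives.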

How the results depend on the processing

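The 49 called differences of single members were recomputed under 33 alternatives, which gave 1617 values. None was reversed, 1573 kept the direction and the call, and 44 fell below the threshold, spread over 16 of the 49 differences. Of 462 counts of members called, 452 were within 1.5 times the main count. With only the arrays compared, 0 members in place of 1 were called between aerobic and anaerobic exponential phase, and 1 in place of 2 at the aerobic diauxic shift. Without a fold threshold, 4 were called at the aerobic diauxic shift, and 1 in place of 0 from diauxic shift to post-diauxic phase. Leaving out 1 array at a time gave 0 to 1 for aerobic late exponential against exponential phase and 1 to 2 for the diauxic shift. Without aerobic culture 1 at all time points these counts were 1 and 1, and 4 in place of 7 on entry into aerobic SP. The causes were not tested. The fit with the replicate block of culture numbers changed no count of members called: 5 were called in late SP with the block and 7 on entry into aerobic SP. As a random block, culture had a consensus correlation of -0.00306. Other scalings moved the median of all probe sets: from aerobic early to late SP it was -0.22, with quantile normalization -0.154 and with housekeeping genes -0.083, and for aerobic against anaerobic early SP 0.206, 0.047 and 0.091. The lowest signal of the 9 genes was 40.2 against a floor of 12.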
